A study of Hynobius leechii and Hynobius unisacculus and Hynobius quelpaertensis with 23 samples.

Results

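Collagens, laminins and integrins are the main structural proteins of the extracellular matrix and the receptors by which cells hold on to it. They were followed through the liver, intestine and skin of wild Hynobius salamanders. The genes were taken by symbol alone: every row of the 6 count tables named as a collagen chain (COL, a number, A, a number), a laminin chain (LAMA, LAMB or LAMC and a number) or an integrin (ITGA or ITGB) was included. This gave 69 of the 13514 symbols, made up of 35 collagen chains, 11 laminin chains, 15 integrin alpha chains, 6 integrin beta chains and 2 genes, ITGB1BP1 and ITGB3BP, whose names begin with ITGB but whose products are no integrin subunits.

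The animals were untreated adults taken from the wild, 15 animals of 4 species in 6 lineages. Hynobius leechii gave the lineages labelled HC1, HC3 and LE, while QU stood for H. quelpaertensis, UN for H. unisacculus and YA for H. yangi. Polyadenylated RNA was read in 23 libraries: 5 intestines (1 each of HC1, LE, QU, UN and YA), 3 skins (1 each of HC1, HC3 and UN) and 15 livers (3 each of HC1, HC3 and LE, 2 each of QU, UN and YA). No lineage had more than 1 intestine or 1 skin, so the spread between animals was measured in liver only. The labels used here give neither age nor sex.

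In vertebrates, collagen chains wind in threes into a triple helix. The fibrillar types form the fibres of connective tissue, type IV forms the sheet of the basement membrane, type VI forms beaded filaments, and types XVII and XVIII stand at the boundary of epithelia. Laminins are crosses of an alpha, a beta and a gamma chain that cover the cell-facing side of basement membranes, and integrins are pairs of an alpha and a beta chain that join such proteins to the cytoskeleton. In epidermis, the ITGA6 and ITGB4 chains, type XVII collagen and laminin containing LAMA3 and LAMB3 build the hemidesmosome, the rivet between epithelium and basement membrane. Roles given for single genes are those known from mammals.

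Each lineage had its own count table, and the tables held 28 to 44 of the 69 genes. Only 6 genes (COL1A2, COL6A1, ITGAX, ITGB2, ITGB3BP and LAMB3) stood in all 6 tables, 13 stood in 5, and 14 in a single table. Total counts were 1703075 to 3390245 in intestine, 2552636 to 4628175 in skin and 8672566 to 19281948 in liver. Levels below are CPM, counts per 1000000 counts of the named rows of a table, and 46 of the 69 genes reached 10 CPM in some library. Transcript lengths were not used, so levels are compared between tissues of a table and not between genes.

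One set of livers stood apart. In 6 livers, 1 per lineage and each from the animal that also gave intestine or skin, odd values made up 43.0% to 51.4% of all counts between 1 and 19, and in the other 17 libraries 11.3% to 22.5%. Of the rows of collagens, laminins and integrins, 23 of 184 were at 0 in intestine, 6 of 114 in skin, 80 of 214 in these odd-count livers and 39 of 325 in the other livers. Their part in the results was not tested beyond the values without them that are given below.

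The tissues carried the defining transcripts of their labels, with some of the others beside them. The summed level of 7 keratinocyte markers (KRT5, TGM1, DSG1, DSP, DSC2, EVPL and PPL) was 18441 to 30867 CPM in skin and 27.5 to 488 CPM in liver, and that of 6 markers of intestinal epithelium was 5745 to 20692 CPM in intestine and 7.31 to 92.3 CPM in liver. Keratinocyte markers were also present in intestine, at 336 to 4128 CPM, with the highest value in HC1. Markers of intestinal epithelium were also present in skin, at 858 CPM in HC1, 14750 in HC3 and 1243 in UN, so HC3 skin reached the range of the intestines with 4 of the 6 markers in its table. Of 10 hepatocyte markers the tables held 8 to 10, which summed to 61.1 to 17509 CPM in intestine, 65.0 to 15221 CPM in skin and 15673 to 140846 CPM in liver, with the highest values outside liver in YA and QU intestine and HC3 skin. The part of these transcripts in the results for HC3 skin and the intestines was not tested. The skins held 7 to 9 of 9 skeletal muscle markers, which summed to 7190 to 8525 CPM, and the livers 0 to 3640 CPM. Smooth muscle markers summed to 1678 to 4461 CPM in intestine, 860 to 1086 CPM in skin and 17.9 to 503 CPM in liver. Of 6 fibroblast markers the QU table held 0, so nothing was measured there, and the other tables held 1 or 2. In those tables they summed to 3.34 to 7.96 CPM in intestine, 6.91 to 327 CPM in skin and 0 to 31.6 CPM in liver. A tissue sample holds many cell types, so more cells of a type and more RNA per cell cannot be told apart in any value below.

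Summed over all rows of a table, collagens, laminins and integrins took a larger share of the counts in intestine and skin than in liver in every table. The sums were 1352 CPM in HC1 intestine, 645 in LE, 1205 in QU, 894 in UN and 2292 in YA intestine, and 2826 CPM in HC1 skin, 1297 in HC3 and 1255 in UN skin. The livers of all tables lay between 56.2 and 604 CPM. The ratio to the mean of the livers in the same table was 5.25 in HC1 intestine, 1.51 in LE, 2.99 in QU, 2.50 in UN and 6.34 in YA intestine, and 11 in HC1 skin, 12.9 in HC3 and 3.51 in UN skin. Each intestine and skin exceeded every liver of its table, with LE the closest, where the highest liver reached 604 CPM against 645 in intestine. Other genes moved the same way on this scale. With whole-table totals, the median log2 fold change over all genes found in every table compared was 1.43 in intestine and 1.76 in skin. A sum above the livers thus does not by itself set these genes apart from other genes.

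The families did not contribute evenly. Collagens had 24.3 times the mean of the livers in HC1 skin and 18.5 times in HC3 skin, at 1697 and 1075 CPM, but 1.98 times in UN skin and 1.01 times in LE intestine, where 129 CPM lay inside the liver range of 108 to 159 CPM. Single genes carried much of these sums. COL17A1 gave 1214 of the 1697 collagen CPM in HC1 skin and 688 of the 1075 in HC3 skin, and COL18A1 gave 1157 of the 1509 in YA intestine. The ratio to the livers for laminins was 1.30 (QU) to 10.3 (HC1) in intestine and 2.76 (HC1) to 7.87 (HC3) in skin. For integrin subunits it was 1.29 (LE) to 5.32 (HC1) in intestine and 3.49 (UN) to 6.08 (HC1) in skin. In QU the laminins of intestine, at 92.2 CPM, and in LE the integrins of intestine, at 269 CPM, lay inside the range of the livers.

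**Figure D1:**
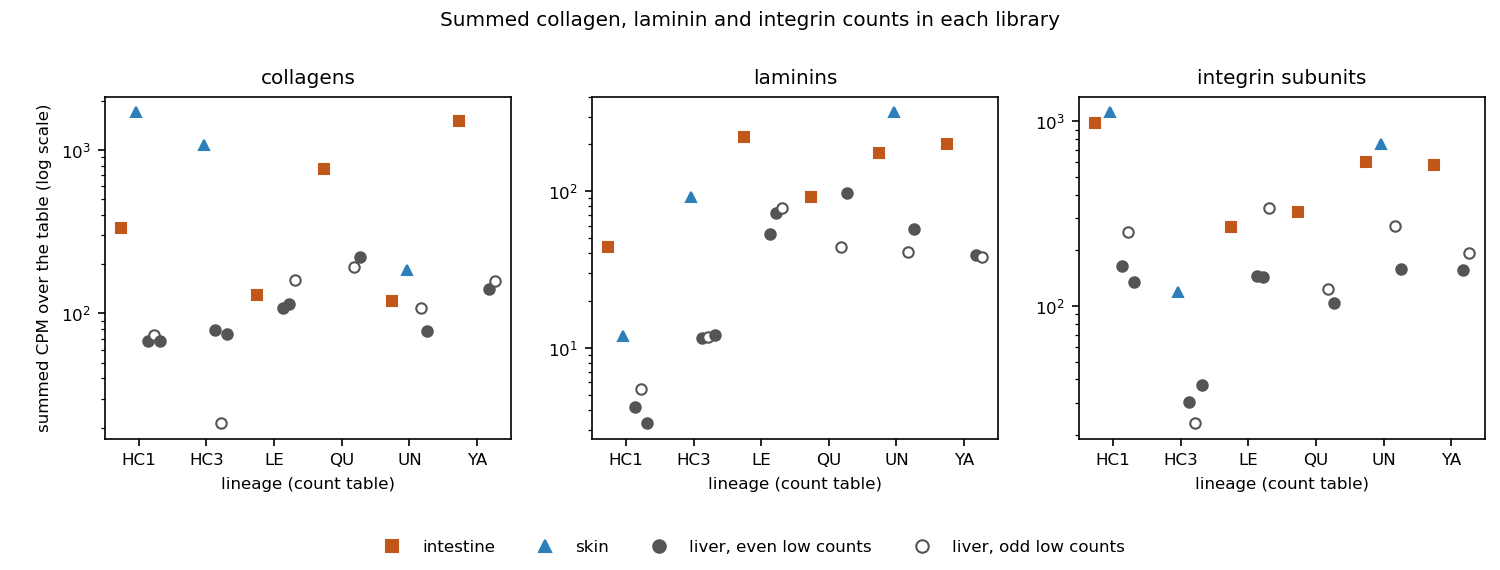
Summed CPM of collagen, laminin and integrin rows (log axes) in each of the 23 libraries by lineage, with intestine as squares, skin as triangles and livers as circles, open for the 6 livers with odd low counts. Each point is 1 library; HC1 and HC3 skin stand at 1697 and 1075 CPM of collagens, most of it COL17A1, while LE intestine (129 CPM) lies among its livers.

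Gene by gene, 125 of the 184 rows measured in intestine lay above every liver of their table and 22 lay below every liver. Among all named rows the share above every liver was 53.9% in HC1, 55.5% in LE, 73.1% in QU, 54.4% in UN and 57.5% in YA, and the share below every liver was 15.4%, 19.3%, 13.5%, 22.3% and 25.1% in the same tables. The counts for collagens, laminins and integrins were 33 above and 1 below of 44 in HC1, 24 and 7 of 37 in LE, 19 and 6 of 28 in QU, 25 and 4 of 40 in UN, and 24 and 4 of 35 in YA. HC1 thus had the widest gap to its background among the 5 intestines, and QU, at 19 of 28, had none.

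In skin, 89 of 114 rows lay above every liver and 2 below. The counts were 31 above and 2 below of 44 in HC1, where 54.7% of all rows were above and 11.4% below, 28 and 0 of 30 in HC3 (67.5% and 8.4%), and 30 and 0 of 40 in UN (69.1% and 13.9%). In intestine 3 counts correspond to 0.885 to 1.76 CPM and in liver to 0.156 to 0.346 CPM, so weak rows can lie above the livers by a count or a pair of counts. Of rows with at least 10 CPM on average over the libraries of a table, 48 of 62 were above every liver in intestine and 7 below (47.9% and 29.7% of all such rows), and 27 of 32 in skin and 0 below (57% and 19.9%). That mean includes the intestine and skin, and rows such as COL17A1 pass only through the tissue where they are high, so these counts support nothing. Against the even-count livers alone, 131 of 184 rows were above and 46 below in intestine (64.4% and 29.2% of all rows), and 92 of 114 above and 13 below in skin (66.7% and 21.8% of all rows).

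**Figure D2:**
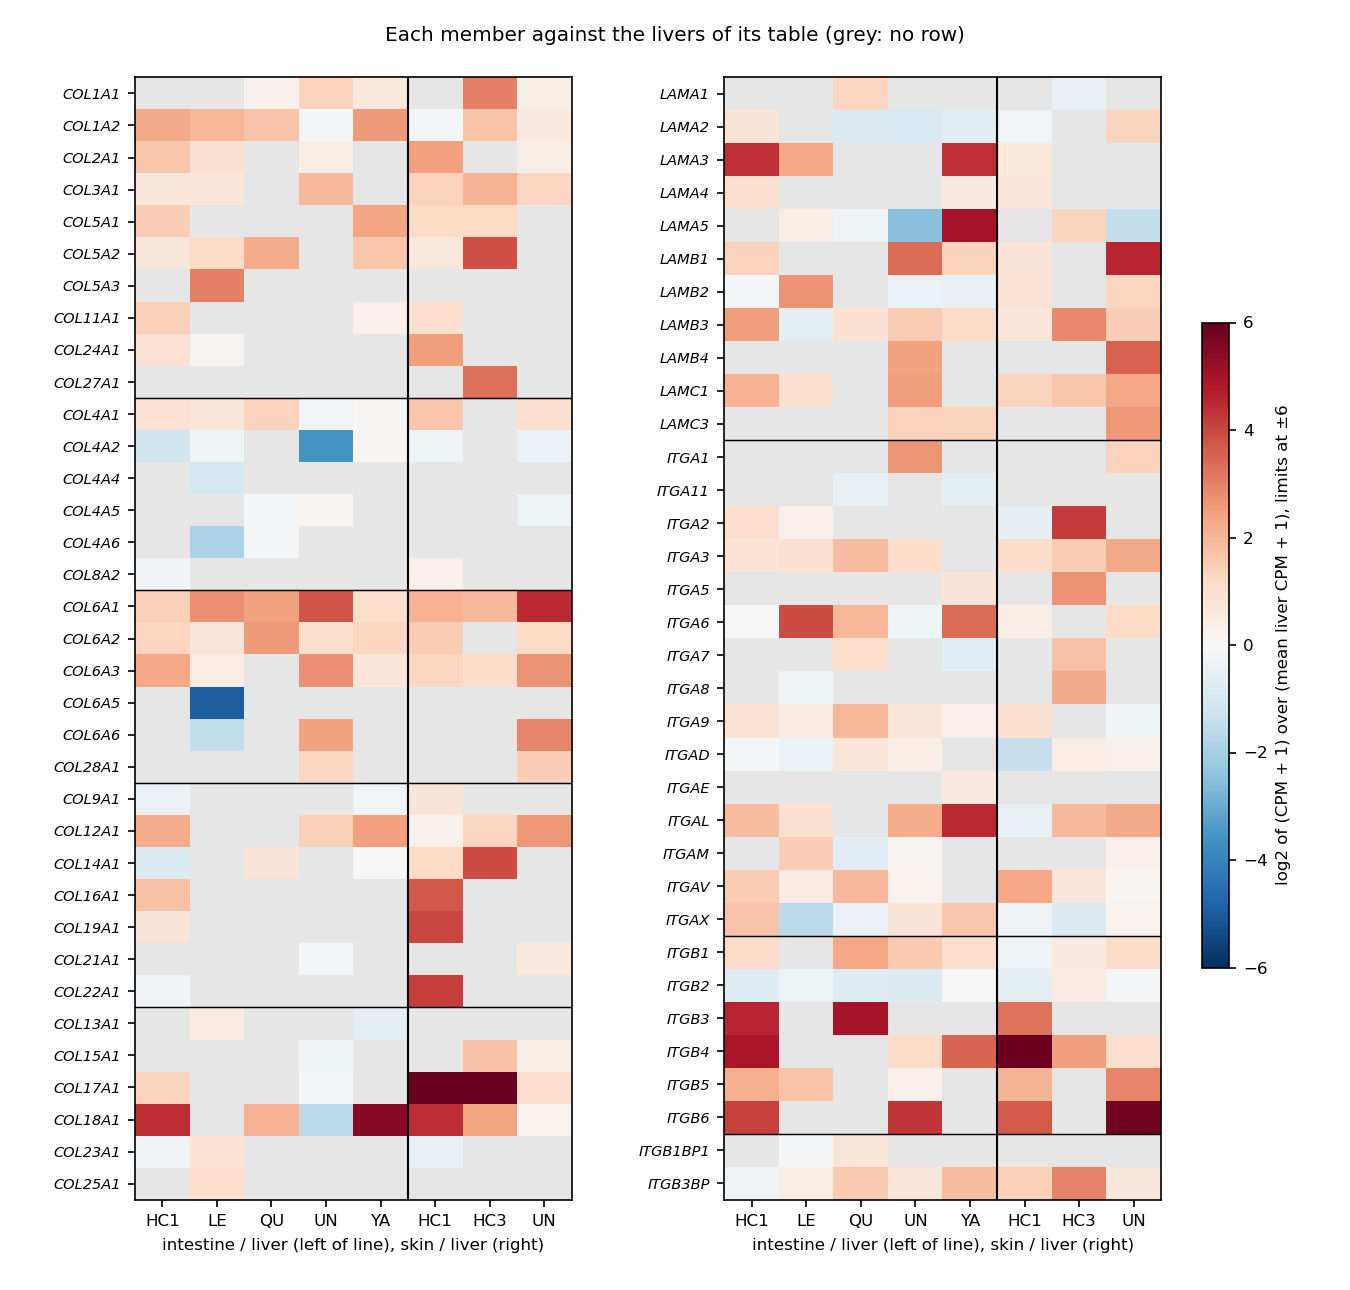
Each of the 69 genes against the mean of the livers in its own table, as log2 of (CPM + 1) in intestine or skin over (CPM + 1) in liver, with colour limits at ±6 and grey where a table has no row. Lines part the role groups; red prevails in the fibrillar and beaded collagens, the type IV rows are mostly pale or blue, and COL17A1, ITGB4, ITGB6 and COL18A1 hold the darkest red cells.

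Differences were tested with edgeR's quasi-likelihood test in a model of lineage plus tissue, with Benjamini-Hochberg adjustment over all genes of the fit and an adjusted p under 0.05 as the threshold. The fit on genes shared by every table compared held few of the 69 genes, so each gene was also fitted over all tables that held it, at least 2 of them, a choice made after the data were seen. The libraries came from 15 animals, and 6 of these gave several tissues.

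For intestine, 10 of the 69 genes could be tested in the fit on shared genes and none was called, although 3.9% of the 2821 genes tested were called higher and 1.03% lower. COL6A1 was the 1 of these 10 with an unadjusted p under 0.05, a threshold passed by 21.5% of all genes in this fit, and DESeq2 called 6 of the 10 higher, where it called 876 of the 2821 genes higher and 153 lower. In the fit of each gene over its own tables, 48 of the 69 genes were tested, 3 were called higher and none lower (2.93% and 0.75% of 10666 genes). At an unadjusted p under 0.05 there were 11, all higher, against 20.7% of all genes in either direction and 1719 of the 10666 higher. The log2 fold change was positive for 37 of the 48 genes, with a median of 1.53, and for 7263 of the 10666 genes, with a median of 0.85.

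For skin, 2 of 18 genes tested in the fit on shared genes were called higher and none lower, against 3.97% and 1.35% of 4736 genes. Of the 18, 6 had an unadjusted p under 0.05, all higher, against 20.3% of all genes in either direction and 723 of the 4736 higher. Fitted over their own tables, 3 of 35 were called higher and none lower, against 2.36% and 0.899% of 8676 genes. At an unadjusted p under 0.05 there were 9, all higher, against 18.8% of all genes in either direction and 1208 of the 8676 higher. The log2 fold change was positive for 30 of the 35 genes with a median of 1.54, and for 5691 of the 8676 genes with a median of 0.73.

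These calls were made without pairing the tissues of an animal. With animal in the model instead of lineage (a block for each animal), no collagen, laminin or integrin was called in either tissue by edgeR, and neither was any other gene. In that model only the animals that gave both tissues, 5 for intestine and 3 for skin, inform the tissue difference. A term for each animal left few degrees of freedom, and whether a real difference could pass in that model was not tested. The lack of calls there does not show that differences are absent. The livers of the animals that gave intestine or skin were the odd-count livers, so library type and the pairing cannot be told apart there.

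**Figure D3:**
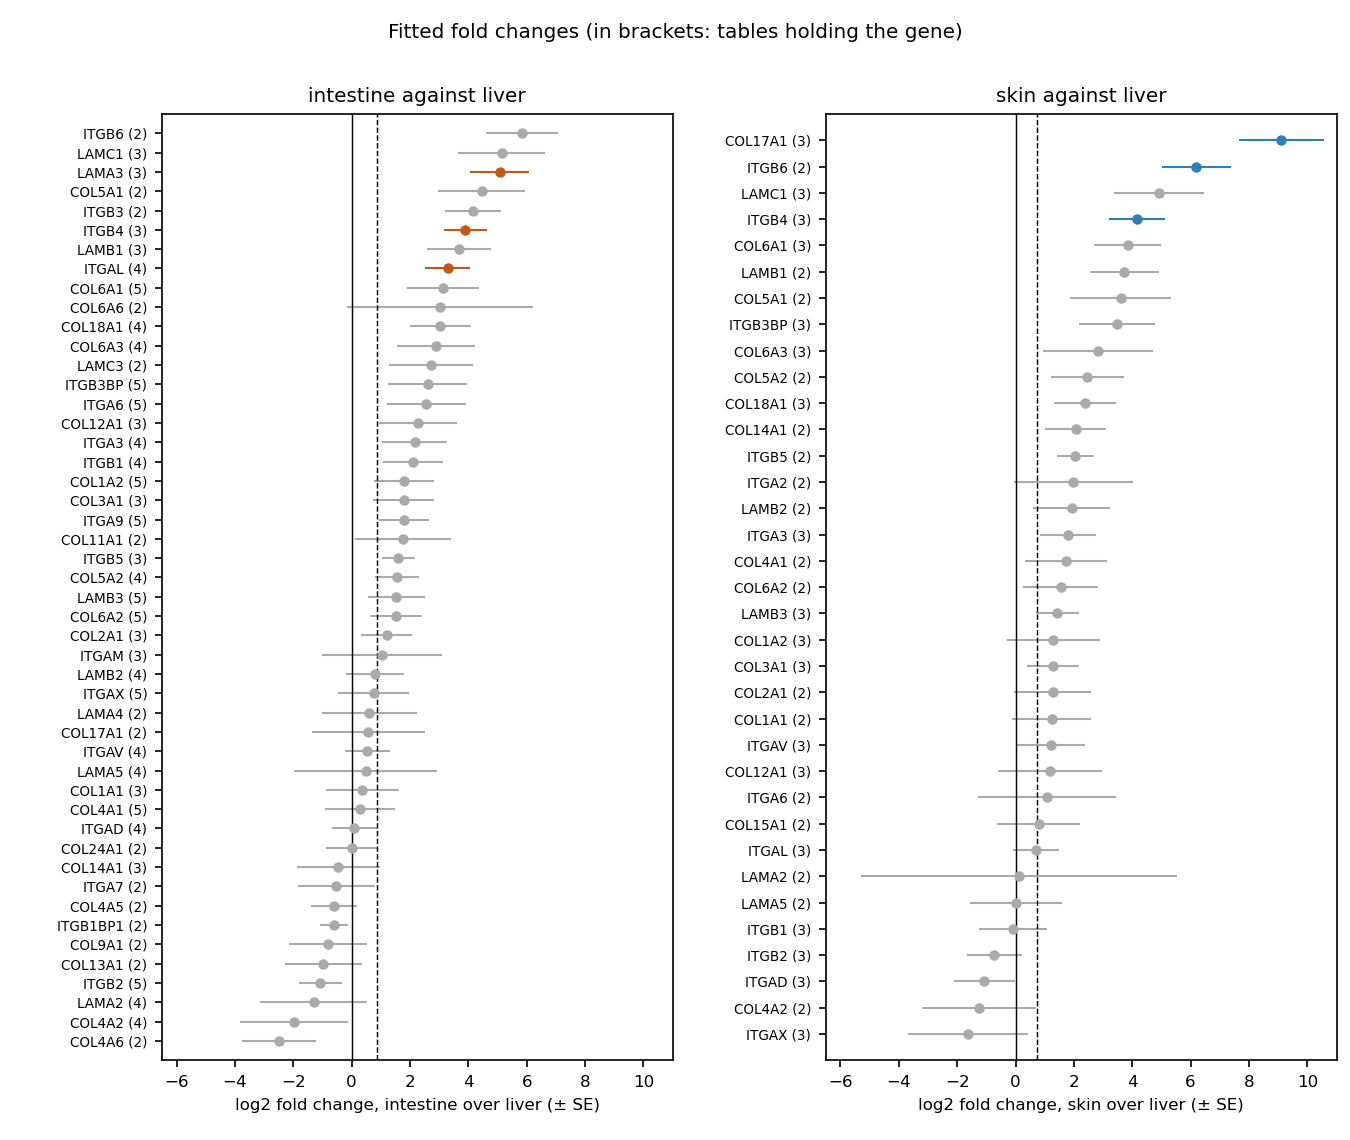
Fitted log2 fold change ± SE of intestine over liver (left) and skin over liver (right) for each gene fitted over every table that holds it, the number of tables in brackets. Coloured points passed an adjusted p of 0.05 (ITGB4, LAMA3 and ITGAL in intestine; COL17A1, ITGB6 and ITGB4 in skin), the solid line marks 0 and the dashed line the median of all genes tested (0.85 and 0.73).

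Over all named rows of the tables, 58.3% lay above every liver and 19% below in intestine, and 63.2% above and 11.4% below in skin. Fibrillar collagens, the stuff of connective tissue fibres, lay above every liver in 22 of 25 rows in intestine and in 15 of 17 rows in skin, and below every liver in none. COL1A2, a chain of type I collagen, had 6.32 CPM in HC1 intestine, 8.13 in LE, 134 in QU, 0 in UN and 124 in YA. Its livers had 0 to 1.15 CPM in HC1, 0 to 2.21 in LE, 32.9 and 48.7 in QU, 0 and 0.125 in UN, and 20.3 and 19.9 in YA. The intestine therefore exceeded every liver in 4 of 5 tables, at 3.29 times the liver mean in QU and 6.15 times in YA. Skin had 0.432 CPM in HC1, 3.13 in HC3 and 0.580 in UN, from 2 to 8 counts. The fitted log2 fold change was 1.80 ± 1.03 (SE), with an adjusted p of 0.320 in edgeR's quasi-likelihood test on shared genes, and was not called.

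COL1A1, the partner chain of COL1A2, was highest in HC3 skin, at 98.7 CPM against 14.5, 8.93 and 10.2 CPM in its livers. In intestine it had 24.1 CPM in QU, inside the liver values of 12.8 and 27.4, 15.6 CPM in YA against 10.5 and 9.14, and 3.34 CPM in UN against 0 and 1.37. COL3A1, the type III chain of pliable tissues, had 42.1 CPM in HC1 skin against 11.5, 15.5 and 19 in its livers, and 156 CPM in HC3 skin against 52.1, 9.25 and 49.3. It was above every liver in each of the 3 intestines and 3 skins with a row, with a log2 fold change of 1.79 ± 1.05 in intestine and 1.28 ± 0.90 in skin (adjusted p 0.358 and 0.480, edgeR over its own tables).

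COL5A2, of the type V collagen that sits inside type I fibres, was above every liver in 4 of 4 intestines and 2 of 2 skins. The HC1 values rest on 2 counts in intestine and 4 in skin. COL5A2 reached 34.1 CPM in HC3 skin against 1.24, 0.481 and 2.39 in the livers. COL5A1 had 26.8 CPM in YA intestine against 5.82 and 2.85 in the livers, and COL5A3 16.3 CPM in LE intestine against 0 to 2.43. COL2A1, the cartilage type II chain, and COL24A1 had 43.0 and 46.9 CPM in HC1 skin, where the highest livers had 8.42 and 9.40 CPM. No fibrillar row lay below every liver, and no fibrillar chain in edgeR's fits was called in either tissue. DESeq2 called COL1A2 higher in intestine. COL5A3 and COL27A1, with a row in 1 table, were not tested, and COL11A1 and COL24A1 were not tested in skin.

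Of type IV and other network collagens, 3 of 15 rows lay above every liver in intestine and 4 below, and in skin 2 of 6 above and 0 below, where 58.3% of all rows were above in intestine and 63.2% in skin. COL4A1, a main chain of basement membrane sheets, had 10.6 CPM in QU intestine against 3.37 and 3.63 in its livers, and 11 CPM in HC1 skin against 2.42, 3.27 and 2.58. Its partner chain COL4A2 had 0 counts in HC1 and UN intestine, while UN skin had 8.42 CPM and the UN livers 5.0 and 16.9 CPM. With counts taken as single, a count of 0 allows up to 1.002 CPM in UN intestine, which is 0.0916 times the liver mean and covers counting error only. Low counts there were mostly even, so this bound may be too tight. COL4A5 had 29.7 CPM in UN intestine and 22.3 CPM in UN skin, between livers of 43.8 and 11.5 CPM. Over all their tables, COL4A1 and COL4A2 had log2 fold changes of 0.27 ± 1.20 and -1.98 ± 1.86 in intestine, and neither was called (adjusted p 0.914 and 0.566, edgeR). Of 6 endothelial markers, from cells that also lay down basement membrane, the tables held 1 to 5. They summed to 7.35 to 437 CPM in intestine, 3.92 to 24.2 CPM in skin and 0 to 9311 CPM in liver. The 9311 CPM came from a QU liver, whose table held 1 of the markers, so sums are not comparable between tables. The part of endothelial cells in these values was not tested.

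Rows of type VI collagen, which forms beaded filaments around cells, and of COL28A1 lay above every liver in 16 of 18 rows in intestine and 10 of 10 in skin. Of all rows 58.3% and 63.2% were above. COL6A1, COL6A2 and COL6A3 were above every liver in each intestine and skin whose table had the row. Some of these rows held few counts: COL6A2 had 2 in LE and 4 in UN intestine, and COL6A3 had 4 in HC3 skin. For COL6A1 the level was 2.71 CPM in HC1 intestine, 6.10 in LE, 127 in QU, 28 in UN and 4.13 in YA, and 4.75 CPM in HC1 skin, 3.13 in HC3 and 46.1 in UN skin. The livers had 0 to 0.644 CPM in HC1, 0 to 0.207 in HC3, 0 to 0.221 in LE, 16.9 and 29.6 in QU, 0.604 and 1.69 in UN, and 2.96 and 0 in YA. No liver reached the intestine or skin of its own table, but outside QU and UN the intestines and skins held only 6 to 22 counts of this row.

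The fitted log2 fold change of COL6A1 was 3.12 ± 1.22 in intestine and 3.85 ± 1.16 in skin, with adjusted p-values of 0.156 and 0.0915 in edgeR's fits on shared genes, so it was not called. It was called in both tissues with whole-table library sizes and with DESeq2, settings that also called more of all genes. COL6A2 had 42.0 CPM in HC1 intestine and 49.0 CPM in HC1 skin against 10.7, 29.6 and 9.60 in the livers, and 92.0 CPM in YA intestine against 31.4 and 42.1. Further alpha chains of type VI lay below every liver in LE intestine. COL6A5 had 1.02 CPM there, from 2 counts, and the livers 29.1, 55.9 and 101 CPM. COL6A6 had 0 CPM, which with counts taken as single allows up to 1.52 CPM, against 1.38 to 2.29 CPM in the livers. In UN, COL6A6 had 5.01 CPM in intestine and 7.55 CPM in skin against at most 0.22 CPM in the livers.

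Fibril-associated collagens, which bind to the surface of fibres, were measured in 12 intestine rows, 6 of them above every liver and 0 below, and in 10 skin rows, 9 above and 0 below. In intestine that share above was under the 58.3% of all rows, and in skin 63.2% of all rows were above. COL12A1 had 30.7 CPM in YA intestine against 5.92 and 3.71 in the livers. COL14A1 had 54.1 CPM in HC3 skin against 3.10, 1.5 and 3.32 in its livers, but 34.8 CPM in YA intestine lay between livers of 17.6 and 52.0 CPM. Some chains had a row in the HC1 table alone. In HC1 skin COL16A1 had 59.2 CPM, COL19A1 17.3 CPM and COL22A1, a collagen of muscle-tendon junctions, 19.7 CPM. The HC1 intestine had 14.4, 0.903 and 0 CPM for these genes, and its livers at most 6.06, 0.386 and 0.461 CPM. Skeletal muscle markers summed to 8289 CPM in HC1 skin and 2507 CPM in HC1 intestine, and their part in the COL22A1 level was not tested.

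COL17A1, the transmembrane collagen of hemidesmosomes, had the highest fitted log2 fold change of the genes tested here in skin. It had 1214 CPM in HC1 skin, 688 CPM in HC3 skin and 1.16 CPM in UN skin. The livers had 1.15, 0.238 and 1.09 CPM in HC1, 0.207, 0 and 0.415 CPM in HC3, and 0 and 0.125 CPM in UN. HC1 intestine had 3.61 CPM and UN intestine 0. Skin thus exceeded every liver in all 3 tables, but the UN value came from 4 counts and was far from the other skins, although UN skin held keratinocyte markers at 18441 CPM.

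Skin levels of COL17A1 rose by a log2 fold change of 9.10 ± 1.46, with an adjusted p of 0.0107 in edgeR's quasi-likelihood fit on shared genes (0.0157 over its own tables). The call ended without HC1 skin or without HC3 skin, with adjusted p-values of 0.0850 to 0.112 (edgeR), and with the animal as a block (0.260, at a log2 fold change of 12.1). Without the odd-count livers it was kept, at a log2 fold change of 8.43 and an adjusted p of 0.0186. In intestine the log2 fold change was 0.57 ± 1.94 (adjusted p 0.889, edgeR over the tables that hold it).

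COL18A1, a heparan sulfate-bearing collagen of epithelial and vascular basement membranes, was high in intestine but not in all lineages. It had 172 CPM in HC1 intestine, 426 in QU, 13.0 in UN and 1157 in YA. The livers had 8.65, 4.28 and 8.11 CPM in HC1, 107 and 94.7 in QU, 56.8 and 24.9 in UN, and 35.6 and 14.2 in YA. The intestine was above every liver in HC1, QU and YA, at 24.5, 4.23 and 46.5 times the liver mean, and below both livers in UN, at 0.319 times.

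In skin, COL18A1 had 169.6 CPM in HC1, 7.84 in HC3, where the livers had 1.45, 0 and 0.623 CPM, and 46.7 in UN, between its livers. The fitted log2 fold change was 3.03 ± 1.05 in intestine and 2.38 ± 1.05 in skin, and neither was called (adjusted p 0.136 and 0.255, edgeR over its own tables). COL15A1, the related multiplexin, had 12.5 CPM in HC3 skin against 3.92, 0.802 and 4.36 in the livers.

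**Figure D4:**
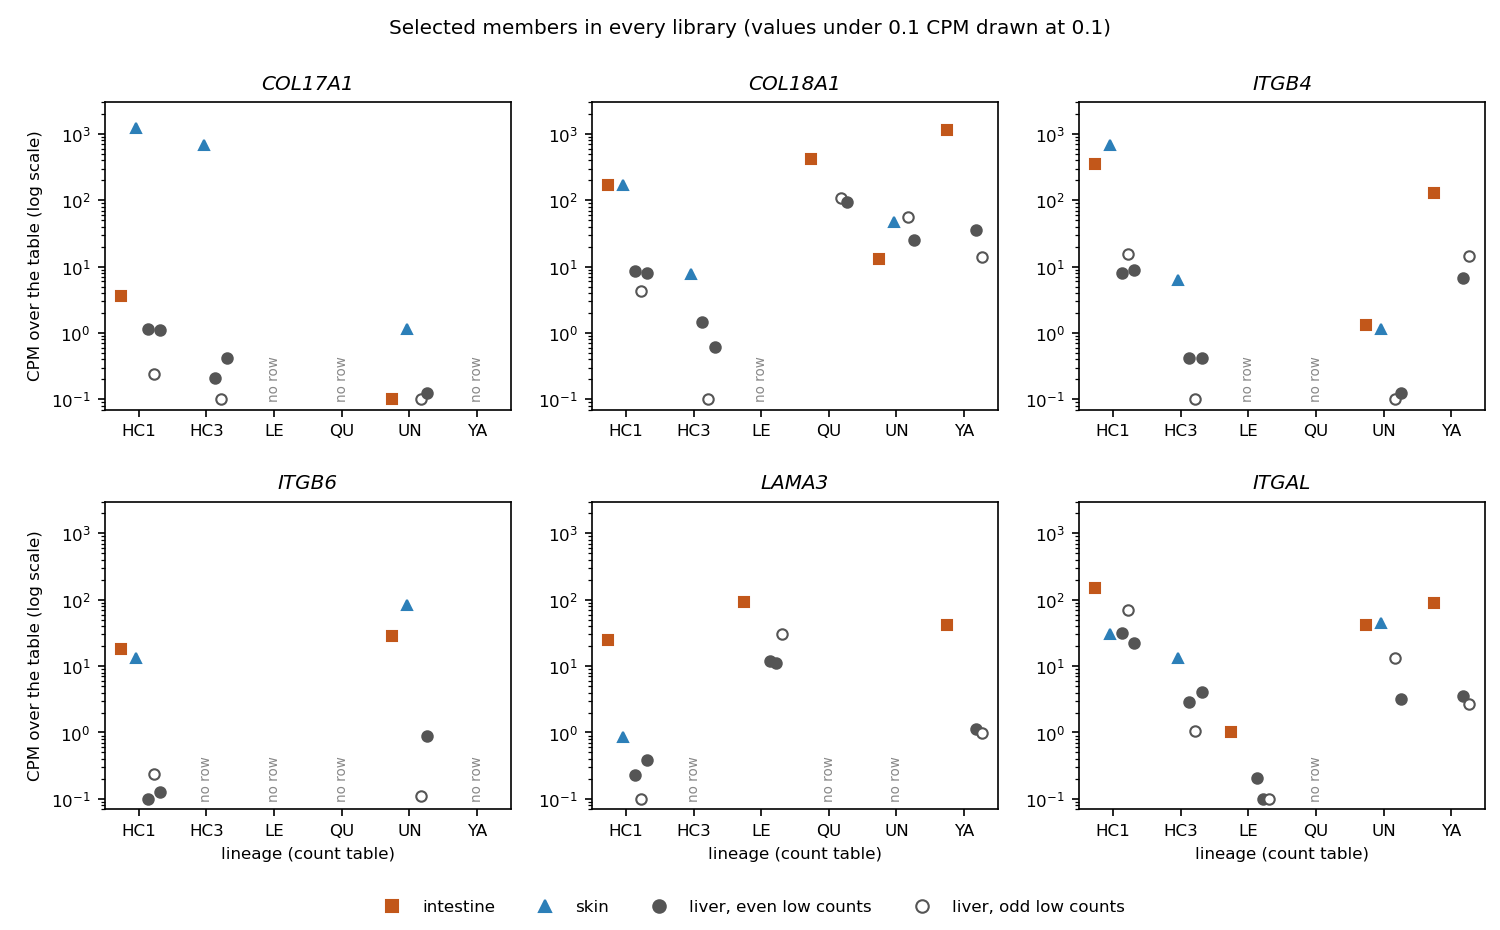
CPM of 6 genes (log axes) in every library whose table has the gene, with intestine as squares, skin as triangles and livers as circles, open for the livers with odd low counts; values under 0.1 CPM are drawn at 0.1. COL17A1 stands at 1214 and 688 CPM in HC1 and HC3 skin and under 4 CPM elsewhere, COL18A1 lies below both livers in UN intestine, and ITGB4, ITGB6 and LAMA3 lie above every liver in each intestine with a row.

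Laminin chains lay above every liver in 22 of 32 intestine rows and 16 of 19 skin rows, and below in 4 and 0, where 58.3% and 63.2% of all rows were above. LAMA3, the alpha chain of epithelial laminin, had 24.4 CPM in HC1 intestine, 93.0 in LE and 41.3 in YA. Its livers had 0.231, 0 and 0.386 CPM in HC1, 11.8, 11.1 and 29.99 in LE, and 1.11 and 0.993 in YA. The intestine was above every liver in all 3 tables, and the highest liver of the LE table was the odd-count one.

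LAMA3 rose in the intestines with a log2 fold change of 5.07 ± 1.01 and an adjusted p of 0.0295 in edgeR's fit over its own tables. Leaving out any of 9 libraries (the HC1, LE and YA intestines and each of their even-count livers, and the YA odd-count liver) ended the call, with adjusted p-values of 0.0591 to 0.141. In this kind of fit, leaving out an intestine also took out the livers of its lineage. A term for library type gave 0.0773 at a log2 fold change of 5.01 and a block for animal 0.454 at 5.30, while the fit without the odd-count livers gave 0.0264. HC1 skin, the 1 skin whose table held LAMA3, had 0.864 CPM from 4 counts, above its livers but far under the intestine of the same table.

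LAMB3, the beta chain that pairs with LAMA3, was present in all 6 tables. Intestine had 5.42 CPM in HC1, 0 in LE, 50.5 in QU, 67.1 in UN and 65.8 in YA, and skin had 0.864 CPM in HC1, 87.8 in HC3 and 63.8 in UN. The livers had 0 to 0.231 CPM in HC1, 10.4 to 11.8 in HC3, 0.115 to 1.10 in LE, 39.5 and 13.6 in QU, 19.3 and 26 in UN, and 26.8 and 32.2 in YA. Both tissues exceeded every liver in all tables but LE, where the intestine was at 0. The log2 fold change was 1.53 ± 0.98 in intestine and 1.44 ± 0.73 in skin, and neither was called in edgeR's fits on shared genes (adjusted p 0.377 and 0.303).

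LAMB1 and LAMC1 are chains of most basement membrane laminins. LAMB1 had 69.8 CPM in UN intestine and 162 CPM in UN skin against 8.18 and 3.68 in the livers. LAMC1 had 83.3 CPM in LE intestine against 36.0, 50.0 and 40.9 in the livers, but in HC1, HC3 and UN no library exceeded 4.67 CPM. Their log2 fold changes were 3.68 ± 1.11 and 5.14 ± 1.48 in intestine and 3.73 ± 1.19 and 4.93 ± 1.54 in skin, with adjusted p-values of 0.0899 to 0.163 (edgeR, over their own tables), so neither was called.

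LAMA5, the alpha chain found in most epithelia, lay above its livers in LE and YA intestine and inside them in QU and UN. YA intestine had 84.4 CPM against 1.48 and 1.99 in its livers, QU intestine 33.5 CPM against 2.07 in the odd-count liver and 79.2 in the other, and UN intestine 0 against 0 and 9.49. The log2 fold change of 0.48 ± 2.45 was not called (adjusted p 0.926, edgeR), with an SE many times the value. LAMC3 had 22.4 CPM in UN intestine and 52.5 CPM in UN skin against 8.79 and 7.06 in the livers, LAMB4 5.68 and 13.3 CPM against 0.22 and 0.25, and LAMB2 44.2 CPM in LE intestine against 4.27, 8.06 and 5.30.

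Integrin beta chains were above every liver in 14 of 19 intestine rows and 11 of 14 skin rows, and below in 3 and 0. Of all rows 58.3% and 63.2% were above and 19% and 11.4% below. ITGB4, the hemidesmosome chain with a long cytoplasmic tail that binds the keratin linker plectin, had 353 CPM in HC1 intestine, 1.34 in UN and 131 in YA. Skin had 692 CPM in HC1, 6.27 in HC3 and 1.16 in UN. The livers had 7.96, 15.5 and 8.76 CPM in HC1, 0.413, 0 and 0.415 in HC3, 0 and 0.125 in UN, and 6.84 and 14.7 in YA. Every intestine and every skin with a row exceeded all livers of its table, by 32.8 times the liver mean in HC1 intestine, 12.2 times in YA intestine and 64.4 times in HC1 skin. The values of UN intestine and UN skin came from 4 counts each, near the floor of 3 counts, and that of HC3 skin from 16.

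ITGB4 was the gene called in both tissues. Its log2 fold change was 3.90 ± 0.73 in intestine (adjusted p 0.0273, edgeR over its own tables) and 4.17 ± 0.96 in skin (adjusted p 0.0359 on shared genes and 0.0474 over its own tables). Both comparisons use the livers of HC1 and UN, and in these lineages skin and intestine came from the same animal, so they are not independent. In skin the call on shared genes ended when any of 8 of the 11 libraries was left out, namely the 3 skins, the 3 HC1 livers and HC3 livers 1 and 3, with adjusted p-values of 0.0506 to 0.296 (edgeR). Over its own tables the UN livers ended it too, with 0.0549 to 0.365 in all. In intestine 6 of the 17 libraries ended it, namely the HC1, LE and YA intestines, HC1 livers 1 and 3 and YA liver 1, with 0.0501 to 0.163 (edgeR). The LE table lacks ITGB4, so leaving out its intestine did not change the fit of ITGB4 itself. Only the other genes over which p was adjusted changed. With library type as a term the adjusted p was 0.0908 in intestine and 0.126 in skin, with the animal as a block 0.384 and 0.260, and without the odd-count livers 0.0183 and 0.0292 (edgeR). The log2 fold changes were 3.91 and 3.60 with library type and 4.14 and 5.79 with the block.

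ITGB6, a beta chain that epithelia use to bind and activate TGF-beta, was near 0 in liver. It had 18.1 CPM in HC1 intestine and 28.4 CPM in UN intestine, and 13.4 CPM in HC1 skin and 82.7 CPM in UN skin. The livers had 0, 0.238 and 0.129 CPM in HC1 and 0.110 and 0.874 CPM in UN. The groups did not overlap in either table.

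ITGB6 rose in skin, by a log2 fold change of 6.2 ± 1.17 with an adjusted p of 0.0462 in edgeR's fit over the 2 tables that hold it. Leaving out the HC3 skin, HC3 livers 1 and 3, or any HC1 or UN liver gave adjusted p-values of 0.0597 to 0.122 (edgeR). These are 8 of the 9 libraries that could be left out with ITGB6 still tested. Without HC1 or UN skin too few tables with the gene remained for the fit. A term for library type gave 0.149 at a log2 fold change of 6.02 and a block for animal 0.404 at 7.09. In intestine the log2 fold change of 5.85 ± 1.24 was not called (adjusted p 0.0578, edgeR). The HC3 table lacks ITGB6, so leaving out HC3 libraries changed the adjustment over all genes and not the fit of ITGB6 itself.

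ITGB3, known for the integrins of thrombocytes and of cells that bind vitronectin, had 258 CPM in HC1 intestine, 104 CPM in HC1 skin and 63.4 CPM in QU intestine. The livers had 19.5, 1.90 and 8.05 CPM in HC1 and 0.570 and 1.63 CPM in QU. Its log2 fold change in intestine was 4.15 ± 0.96 with an adjusted p of 0.0741 (edgeR), just short of a call, and it was called without the odd-count livers. Of 7 thrombocyte and erythroid markers each table held 3, which summed to 46.9 to 580 CPM in intestine, 257 to 536 CPM in skin and 24.5 to 496 CPM in liver, and their part in the ITGB3 level was not tested. This sum mixes both cell types. In HC1 intestine, which had the 580 CPM, the thrombocyte marker GP1BA was at 0.

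ITGB1, the common partner of many alpha chains, could be read well in UN and YA alone. It had 413 CPM in UN intestine and 308 CPM in UN skin against 189.9 and 91.3 in the livers, and 316 CPM in YA intestine against 138 and 169. In HC1, HC3 and QU no library exceeded 4.70 CPM. ITGB5 had 38.1 CPM in LE intestine against 7.6, 7.5 and 18.3 in the livers, and 113 CPM in UN skin against 17.4 and 10.4. Neither gene was called in either tissue (log2 fold change of 2.09 ± 1.03 and 1.59 ± 0.57 in intestine, adjusted p 0.276 and 0.153, edgeR).

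ITGB2, the beta chain of leukocytes, lay inside or below its livers in every intestine. It had 41.1 CPM in HC1 intestine, 20.8 in LE, 9.39 in QU, 6.34 in UN and 0.590 in YA, and 47.5 CPM in HC1 skin, 0.784 in HC3 and 11.3 in UN. The livers had 58.7, 101 and 46.2 CPM in HC1, 16.5, 32.8 and 28.9 in LE, 17.6 and 14.3 in QU, 13.8 and 9.93 in UN, 1.11 and 0 in YA, and 0 to 0.623 in HC3. Intestine was below every liver in HC1, QU and UN. The log2 fold change was -1.08 ± 0.73 in intestine and -0.73 ± 0.94 in skin, and neither was called (adjusted p 0.40 and 0.712, edgeR on shared genes). Without the odd-count livers ITGB2 was called, as the 1 gene of the module lower in intestine.

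Integrin alpha chains were above every liver in 30 of 44 intestine rows and 16 of 26 skin rows, and below in 7 and 1. Of all rows 58.3% were above in intestine and 63.2% in skin, and 19% and 11.4% were below. The share above in skin was no higher than that of all rows. ITGAL, which pairs with ITGB2 on lymphocytes, had 151 CPM in HC1 intestine, 1.02 in LE, 42.1 in UN and 90.8 in YA. The livers had 32.1, 69.7 and 22.2 CPM in HC1, 0.208, 0 and 0 in LE, 13.3 and 3.25 in UN, and 3.51 and 2.65 in YA. Intestine exceeded every liver in HC1, UN and YA, with a ratio to the liver mean of 29.5 in YA and 3.65 in HC1. The LE value came from 2 counts, under the 1.52 CPM that 3 counts make there, so no difference was detectable in LE.

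In intestine ITGAL rose with a log2 fold change of 3.29 ± 0.77 and an adjusted p of 0.0381 in edgeR's fit over its own tables. Leaving out any of 12 of the 17 libraries, that is every HC1, LE, UN or YA library other than HC1 liver 2 and UN liver 1, gave adjusted p-values of 0.0562 to 0.167, while without the odd-count livers it was 0.0389. Library type as a term gave an adjusted p of 0.104 at a log2 fold change of 3.31, and the animal as a block 0.392 at 3.43 (edgeR). In skin ITGAL had 30.2 CPM in HC1, inside its livers, 13.3 in HC3 against 2.89, 1.07 and 4.05, and 44.4 in UN. Its skin log2 fold change was 0.69 ± 0.79 (adjusted p 0.668, edgeR on shared genes). Leukocyte markers summed to 90.6 to 476 CPM in intestine, 255 to 2002 CPM in skin and 143 to 1803 CPM in liver, and their part in the levels of ITGAL, ITGB2 and ITGAX was not tested.

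ITGAX, a further partner of ITGB2, had 24.4 CPM in LE intestine against 56.6, 53.5 and 110.0 in the livers, and 33.5 CPM in QU intestine against 44.1 and 41.6, below every liver in both. In HC1, UN and YA, at no more than 6.32 CPM, the intestine exceeded the livers. ITGAD, of the same subfamily, had 31.3 CPM in HC3 skin against 21.9, 20.5 and 25.3 in the livers. In HC1 skin it had 0.864 CPM, from 4 counts, below every liver (2.54 to 5.83 CPM). In UN skin ITGAD had 0.580 CPM, from 2 counts, against 0 to 0.549 CPM in the livers. Fitted log2 fold changes were 0.76 ± 1.21 for ITGAX in intestine and -1.06 ± 1.03 for ITGAD in skin, without a call (adjusted p 0.737 and 0.609, edgeR on shared genes).

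ITGA6, the hemidesmosome partner of ITGB4, had 3.61 CPM in HC1 intestine, 48.3 in LE, 3.52 in QU, 0 in UN and 35.4 in YA. The livers had 3.81, 0 and 7.08 CPM in HC1, 0.416, 4.41 and 2.13 in LE, 0 and 0.25 in QU, 0 and 0.375 in UN, and 2.03 and 3.18 in YA. The intestine stood above every liver in LE, QU and YA and inside them in HC1, the table with the highest ITGB4. Its log2 fold change of 2.56 ± 1.37 in intestine was not called (adjusted p 0.292, edgeR on shared genes). In skin ITGA6 had 5.19 CPM in HC1, inside its livers, and 1.74 CPM in UN, above its livers but from 6 counts. The skin log2 fold change of 1.08 ± 2.37 was not called either (adjusted p 0.845, edgeR over its own tables).

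Other alpha chains are receptors for laminin, collagen or vitronectin. ITGA3, a laminin receptor chain, had 79.5 CPM in UN intestine and 185 CPM in UN skin against 36.4 and 37.8 in the livers. ITGA2, a collagen receptor chain, had 42.7 CPM in HC3 skin against 1.24, 0.428 and 2.49. ITGAV, the chain that joins ITGB3, ITGB5 and ITGB6, had 117 CPM in HC1 intestine and 199.6 CPM in HC1 skin against 34.9, 50.5 and 33.6, and 196 CPM in QU intestine against 59.5 and 42.2. In LE the intestine, at 128 CPM, lay inside the livers of 61.2, 39.1 and 172 CPM. ITGA3 and ITGAV were not called in either tissue (adjusted p 0.335 and 0.5999 in skin on shared genes, edgeR).

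ITGB3BP, a centromere protein named for binding to ITGB3, had 10.6 CPM in HC3 skin against 1.03, 0 and 0.311 in the livers, and log2 fold changes of 2.61 ± 1.35 in intestine and 3.47 ± 1.31 in skin (adjusted p 0.275 and 0.168, edgeR). ITGB1BP1, an adaptor that binds the tail of ITGB1, had 18.8 CPM in QU intestine against 12.8 and 9.20, and 13.2 CPM in LE intestine, inside its livers. The 23 genes that stayed under 10 CPM in every library included COL6A3, COL4A6, ITGA9, LAMA1, LAMA2 and LAMA4.

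Skin and intestine were compared directly in HC1 and UN, the lineages with both. In each of these lineages both tissues came from the same animal, and the model of lineage plus tissue did not pair them. No gene was called among the 26 collagens, laminins and integrins tested with edgeR, nor among all 6595 genes (0%), and 1 of the 26 and 137 of the 6595 (2.08%) had an unadjusted p under 0.05. That one was COL17A1, with 1214 CPM in HC1 skin and 3.61 CPM in HC1 intestine, and 1.16 CPM in UN skin and 0 in UN intestine. Its log2 difference was 7.35 ± 2.36 with an adjusted p of 0.9998 (edgeR). DESeq2 called COL17A1 alone of the 26, higher in skin, and 27 genes higher and 34 lower of the 6595. With 2 skins and 2 intestines, a p that misses the threshold does not show that the tissues are alike.

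Within HC1 the counts set other genes apart as well. LAMA3 had 0.864 CPM in skin and 24.4 CPM in intestine, ITGAL 30.2 and 151 CPM, and ITGB3 104 and 258 CPM. Skin was higher for ITGB4, at 692 CPM against 353 CPM, for COL16A1, at 59.2 CPM against 14.4 CPM, and for COL24A1, at 46.9 CPM against 14 CPM. In UN, ITGB5 had 113 CPM in skin and 17.7 CPM in intestine, ITGB6 82.7 and 28.4 CPM, LAMB1 162 and 69.8 CPM, and COL18A1 46.7 and 13.0 CPM, while LAMB3 had 63.8 and 67.1 CPM. These are single libraries, and HC1 intestine held more keratinocyte markers (4128 CPM) than any other intestine.

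Between lineages, liver levels of a given symbol differed widely. All 6 genes present in every table (COL1A2, COL6A1, ITGAX, ITGB2, ITGB3BP and LAMB3) passed edgeR's F test over the 15 livers, with adjusted p-values of 0.00574 to 0.0269, but so did 65.4% of the 2251 genes tested. In the even-count livers, table means of ITGB1 lay between 0.25 and 138 CPM, those of ITGAV between 0.103 and 50.1 CPM and those of COL1A2 between 0.125 and 48.7 CPM. Whether rows of 1 symbol cover the same part of a transcript in every table could not be checked, so lineage and table cannot be told apart.

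Other matrix and adhesion genes are given beside the shares of all genes called over their own tables, 2.93% higher and 0.75% lower in intestine and 2.36% and 0.899% in skin. Calls of single genes in these lists were not followed over left-out libraries or with library type as a term. With the animal as a block edgeR called no gene. Of the list of basement membrane and interstitial matrix proteins, 20 genes were tested in intestine over their own tables, and 1 was called higher: TNC, a glycoprotein of growing and repairing matrix, at a log2 fold change of 3.96 ± 0.65 (adjusted p 0.00923, edgeR). Among 13 genes of collagen folding and crosslinking, P4HA1, a subunit of the prolyl hydroxylase that stabilises the helix, rose (2.70 ± 0.50, adjusted p 0.0175), and BMP1, the protease that trims fibrillar procollagen ends, fell (-4.34 ± 0.67, adjusted p 0.00402). The median log2 fold change of these lists was 1.15 and -0.28, against 0.85 for all genes, and that of 13 matrix proteases and inhibitors, none called, was 1.43.

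The integrin adhesion and hemidesmosome plaque list had a median of 1.69 in intestine, with 24 of 27 genes positive and none called. In skin its median was 1.51 with 21 of 24 positive, and 1 gene was called: PARVB, an actin linker of integrin adhesions, higher at 6.49 ± 1.35 (adjusted p 0.0459, edgeR, over 2 tables). Of all genes in these fits, 7263 of 10666 were positive in intestine and 5691 of 8676 in skin, with medians of 0.85 and 0.73. PLEC, the plectin that links ITGB4 to keratin, had log2 fold changes of 3.09 ± 1.24 in intestine and 4.77 ± 1.34 in skin without passing the test (adjusted p 0.208 and 0.0876, edgeR). LOXL1, an enzyme of collagen and elastin crosslinking, was the 1 of 11 folding and crosslinking genes called in skin, at 4.32 ± 0.85 (adjusted p 0.0474, edgeR, over 2 tables), and none of 19 matrix proteins or 10 proteases was. On the genes shared by all tables compared, LOXL3 was called higher and BMP1 lower in intestine, and THBS1 higher and PARVG lower in skin.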

How the data were processed

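The authors deposited whole-number read counts, a table for each of the 6 lineages, in which rows are gene symbols and columns are libraries, per the file headers. RNA was extracted with Trizol and Direct-Zol columns and enriched for polyadenylated molecules, per the labels' protocols, which mention embryos although all samples are labelled adult. BWA and SAMtools are named in the submitters' processing notes without a version; the genome or transcript sequences and the counting rule are not given in the sources used here, nor is strand, so overlapping or closely related genes can share reads. Samples were mapped to columns by title, which matches the column names, although the descriptions of most samples name another lineage's table. The row of unnamed sequences (0.169% of counts or less) was dropped. Intervals and floors (3 counts) cover counting error only. They take counts as single, although low counts outside the odd-count livers were mostly even, so they may be too tight.

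CPM used whole-table totals. Tables were joined by symbol and tested with edgeR 4.0.16 in R 4.3.3 (TMM, filterByExpr with a minimum count of 10, robust quasi-likelihood F test, Benjamini-Hochberg over all genes of the fit, called under 0.05) in models of lineage plus tissue. A second fit, added after the data were seen, took each gene over all tables that hold it. Alternatives were DESeq2 1.42.0, other scalings and filters, a term for library type (odd or even low counts, split at 30%), a block for animal, and leaving out each library. In the second fit, leaving out the intestine or skin of a lineage also took out its livers, since a table needed both tissues. The code was tested on simulated counts. Samples of 1 animal are tied by their titles, and this is the pairing. The 69 genes and all gene lists were chosen with earlier results of these data known. Genes named are those called and, in each role group, those with the highest CPM or the highest and lowest ratios to liver; others were chosen after their values were seen. No sequences were used here.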

Additional observations from a re-analysis of the deposited data

Results flagged for a closer look

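COL18A1 in intestine did not lie on the same side of the livers in every lineage. It stood above every liver of the same table in HC1, QU and YA, at 172, 426 and 1157 CPM, and below both livers in UN, at 13.0 CPM. The difference between lineages was not tested, since each had 1 intestine. Both UN livers, at 56.8 and 24.9 CPM, exceeded all HC1 livers, and UN skin had 46.7 CPM. Whether the COL18A1 row covers the same part of the transcript in these tables could not be checked.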

How the results depend on the processing

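Counts of called collagens, laminins and integrins moved with scaling and tool. On shared genes, intestine had 0 higher, but 1 (COL6A1) with whole-table library sizes, 6 with DESeq2 (COL1A2, COL6A1, COL6A2, ITGA6, ITGA9, ITGB3BP) and 3 with each gene over all its tables; 0 were lower, but 1 (ITGB2) without the odd-count livers. Skin had 2 higher, but 6 with whole-table library sizes (COL6A1, ITGB3BP, LAMB3 and LAMC1 added), 7 with DESeq2 (COL18A1 also), 1 (ITGB4) at 5 CPM or more in 3 libraries, 1 (COL17A1) with library type as a term and 0 among the genes of all 6 tables. COL17A1 did not pass the filter of 5 CPM in 3 libraries. Neither COL17A1 nor ITGB4 is among the genes of all 6 tables. They were not tested in those fits, so these lower counts are not lost calls. With the animal as a replicate block, in both forms, skin had 0, with an adjusted p of 0.260 (0.273 for paired animals alone) for COL17A1 in edgeR. That block left few degrees of freedom, so its lack of calls does not show that differences are absent. Over all tables that hold a gene, the 3 higher in intestine became 0 with library type and 0 with the block, and the 3 higher in skin became 1 (COL17A1) and 0. The cause was not tested. Leaving out each library gave 0 to 3 in intestine and 0 to 3 in skin over all tables, and 0 to 2 in skin on shared genes. DESeq2 called 1 gene (COL17A1) higher in skin than intestine. Restriction to a mean of 10 CPM, which rows can pass through the tissue where they are high and so supports nothing, leaves 48 above and 7 below in intestine and 27 above and 0 below in skin; even-count livers alone, with fewer livers to exceed, gave 46 below in intestine and 13 below in skin. No direction of a called collagen, laminin or integrin turned under any alternative. Over all genes tested, the median log2 fold change came to 0.85 in intestine and 0.74 in skin, but 1.43 and 1.76 with whole-table sizes, 0.20 and 0.25 without the odd-count livers, and 2.0 and 1.98 with the block. Among all genes 110 were called higher and 29 lower in intestine and 188 and 64 in skin, against 507 and 36, and 742 and 50, with whole-table sizes and 876 and 153, and 882 and 270, with DESeq2. Depth limits rows near 3 counts, which is 0.885 to 1.76 CPM in intestine and 0.648 to 1.18 CPM in skin.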
